A study of Mus musculus with 48 samples.

Results

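*Ciart*, *Bhlhe40* and *Bhlhe41*, 3 auxiliary repressors of the circadian clock, were followed in the colon of mice with and without *Bmal1* in the intestinal epithelium. They were chosen by gene symbol, and are 3 of 55401 genes in the count table. All 3 passed the filter on low counts that left 15073 genes for testing. RNA was sequenced from the colon of 48 male mice on a C57BL/6J background, aged 18 to 20 weeks, that were single-housed with a running wheel and chow at all hours and were sampled on the second day of constant darkness. Control mice were littermates of the genotype *Bmal1*fl/fl x Villin wt/wt, and *Bmal1*IEC-/- mice were *Bmal1*fl/fl x Villin CRE/wt. Both genotypes therefore carried the floxed *Bmal1* alleles, and only the second carried Cre recombinase, under the promoter of villin, a gene of intestinal epithelial cells. Other cells of the colon wall keep *Bmal1* in this model. Each genotype had 4 mice at each of circadian times (CT) 1, 5, 9, 13, 17 and 21. The comparisons rest on 46 mice, since 2 of the 4 *Bmal1*IEC-/- mice at CT1 (SV384, SV385) were left out. The choice was made to follow the study, whose principal component analysis shows 46 colon samples. Its main text does not name the mice left out.

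The mammalian clock is a transcriptional loop. BMAL1 and its partner CLOCK bind E-boxes, short DNA elements with the core CACGTG, and switch on the *Per* and *Cry* genes, whose proteins then block BMAL1 and CLOCK. CIART (also known as CHRONO) binds BMAL1 and represses its activity, while BHLHE40 (DEC1) and BHLHE41 (DEC2) are basic helix-loop-helix proteins of the Orange family that occupy E-boxes themselves. BHLHE40 also responds to hypoxia, nutrients and immune signals.

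*Ciart* (ENSMUSG00000038550) lies on chromosome 3 of GRCm38 at chr3:95878503-95882251 on the minus strand. *Bhlhe40* (ENSMUSG00000030103) lies at chr6:108660629-108666925 on the plus strand and *Bhlhe41* (ENSMUSG00000030256) at chr6:145858243-145865558 on the minus strand. The sequences before the gene starts of *Ciart* and *Bhlhe41* are shown, and both hold CACGTG, the core of the element that BMAL1 binds. They come from RefSeq promoters of build GRCm38.p6, in which 2 of the 3 genes were matched, read 5′ to 3′ on the gene's strand and ending at the base before the annotated gene, with each CACGTG in capitals. They cover chr3:95882252-95882478 (227 bases) and chr6:145865559-145865670 (112 bases), both on the minus strand.
Ciart: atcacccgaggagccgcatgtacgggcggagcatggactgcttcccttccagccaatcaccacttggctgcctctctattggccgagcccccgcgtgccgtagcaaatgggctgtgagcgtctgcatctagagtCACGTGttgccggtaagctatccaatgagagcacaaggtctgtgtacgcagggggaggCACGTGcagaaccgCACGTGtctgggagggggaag
Bhlhe41: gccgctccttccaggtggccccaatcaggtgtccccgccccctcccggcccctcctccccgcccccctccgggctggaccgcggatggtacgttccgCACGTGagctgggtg

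The *Ciart* stretch holds 3 copies of CACGTG, ending 87, 29 and 15 bases before the gene start, and that of *Bhlhe41* holds 1, ending 9 bases before it. Over all 32851 RefSeq promoters, each from 250 bases before to 50 bases after the start, 7.15% held CACGTG at least once and 0.0883% held it 3 times or more. CACGTG reads the same on both strands. CACGTT and the D-box letters TTATGTAA, searched on both strands, were absent from both promoters and were found in 4.68% and 0.938% of all promoters. These are matches of letters and not measured binding. *Bhlhe40* had no promoter in this set and was not searched, so its letters are unknown here.

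The 48 libraries held 3144997 to 4785844 counted reads. Levels are given as normalised read counts, that is counts divided by the size factor of each library, with mean ± SD. In epithelium-specific knockouts the rest of the colon contributes transcripts, and *Arntl*, the gene of BMAL1, was measured over all its exons: it ranged from 15.9 to 286 in control mice and from 85.8 to 182 in *Bmal1*IEC-/- mice. Its mean level over all times did not pass the test for genotype (log2 fold change 0.32 ± 0.17 SE, adjusted p = 0.251), while its daily profile differed between genotypes (adjusted p = 4.07e-13). The left-out replicate SV385 stood apart, with a summed level of 8 smooth muscle markers of 952 CPM (counts scaled to a fixed library size) against 3315 to 5394 CPM in the 22 other *Bmal1*IEC-/- mice used. The other left-out replicate, SV384, lay within their range at 3505 CPM. Summed over 11 epithelial markers, CPM ran from 8273 to 11994 in controls and from 9906 to 13273 in *Bmal1*IEC-/- mice, and the smooth muscle sum from 3723 to 5861 in control mice. In bulk tissue, fewer cells of a type and less RNA per cell cannot be told apart.

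In control mice *Ciart* was lowest at CT21 and CT1 and highest at CT9, late in the subjective day. At CT1 the control mice had 2.34, 4.13, 5.77 and 7.70 normalised counts, and at CT5 they had 8.76, 16.8, 21.5 and 22.3. At CT9 they reached 127, 134, 147 and 181, and at CT13 they had 51.6, 56.5, 60.5 and 80.8. The CT9 values were all above those of every other time. At CT17 the control mice had 14.0, 14.3, 17.4 and 19.1, and at CT21 they had 0.878, 4.78, 5.19 and 7.03. The mean at CT9 (147 ± 24.3, n = 4) was 33.0 times the mean at CT21 (4.47 ± 2.58, n = 4), where 1 to 7 reads were counted per mouse.

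In *Bmal1*IEC-/- mice *Ciart* also had its highest mean at CT9, at a lower level. Their 2 mice at CT1 had 5.14 and 6.35 normalised counts of *Ciart*, and the 4 mice at CT5 had 7.91, 8.07, 9.37 and 9.89. At CT9 they had 15.5, 38.9, 40.7 and 57.1, and at CT13 they had 12.9, 15.9, 17.3 and 24.5. The highest of them at CT9, 57.1, was under the lowest control mouse at that time. At CT17 they had 3.81, 5.01, 7.43 and 10.7, and at CT21 they had 3.75, 4.02, 4.92 and 6.18. The genotypes did not overlap at CT9, CT13 and CT17 and overlapped at the other times. The share of all genes without overlap at these times was not computed. The mean in *Bmal1*IEC-/- mice was 25.8% of the control mean at CT9, 28.3% at CT13 and 41.6% at CT17.

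**Figure D1:**
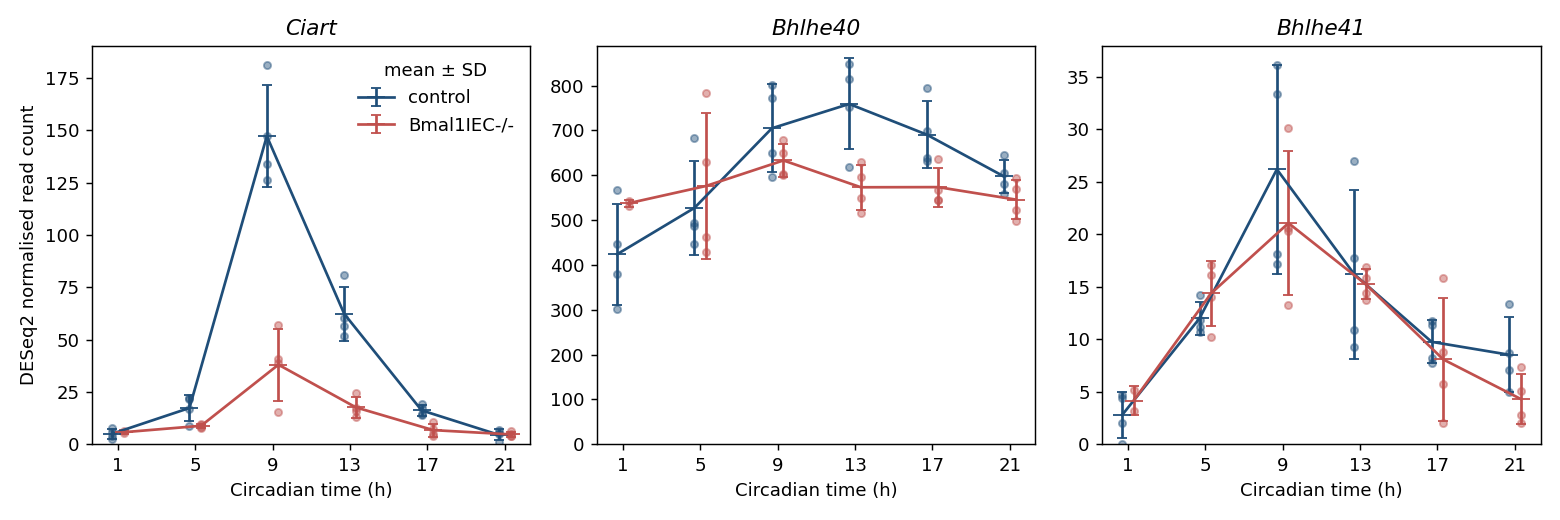
Normalised read counts (vertical axes, each from 0) of *Ciart*, *Bhlhe40* and *Bhlhe41* against circadian time in hours; each point is 1 mouse, and lines join group means with bars of ± SD (4 mice per group, 2 at CT1 in *Bmal1*IEC-/-). *Ciart* peaked at CT9 at 147 in controls and 38.0 in *Bmal1*IEC-/- mice, the means of *Bhlhe40* ran from 424 to 759 in controls and from 538 to 633 in *Bmal1*IEC-/- mice, and the profiles of *Bhlhe41* overlapped at every time.

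Over all times *Ciart* was lower in *Bmal1*IEC-/- mice by a log2 fold change of -1.41 ± 0.16 (SE), with a 95% confidence interval from -1.74 to -1.07 (adjusted p = 9.74e-09, edgeR with circadian time in the model). It ranked 63 among 15073 genes by p-value. For background, 10.5% of the genes tested were called in either direction, 5.72% were called lower, and 0.71% were called lower with a fold change over 1.5. The difference was -1.38 with the smooth muscle marker level in the model and -1.54 with the epithelial one, and both passed the test.

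By circadian time, *Ciart* was lower at CT9 by a log2 fold change of -1.95 ± 0.24 (SE, adjusted p = 2.81e-07) and at CT13 by -1.81 ± 0.27 (adjusted p = 1.02e-05). At CT17 the value was -1.25 ± 0.36, which did not pass (adjusted p = 0.0885), and at CT5 it was -0.96 ± 0.34 (adjusted p = 0.431). At CT1 and CT21, the trough, the values were 0.18 ± 0.57 and 0.09 ± 0.49, with intervals from -0.98 to 1.33 and from -0.89 to 1.07. These intervals reach from a fall to a rise, and neither holds a fall as large as that at CT9. They rest on 1 to 7 reads per mouse and, at CT1, on 2 *Bmal1*IEC-/- mice. The direct edgeR test of genotype by time as a factor did not pass for *Ciart* (adjusted p = 0.115). The share of all genes called lower was 0.597% at CT1, 0.139% at CT5, 0.922% at CT9, 2.29% at CT13, 0.69% at CT17 and 0.199% at CT21.

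**Figure D2:**
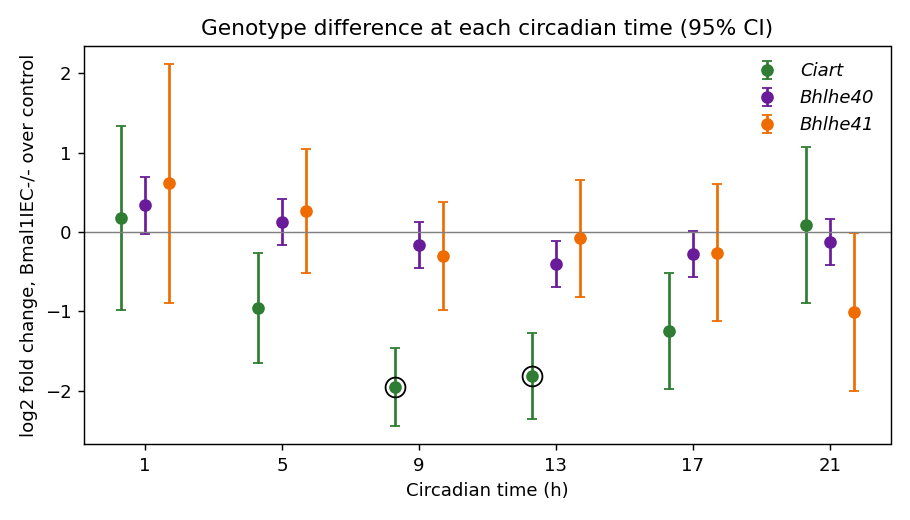
Log2 fold change of *Bmal1*IEC-/- over control mice (vertical axis) at each circadian time in hours for the 3 genes, with bars for the 95% confidence interval from edgeR; black rings mark an adjusted p under 0.05. The 2 ringed points are *Ciart* at CT9 (-1.95) and CT13 (-1.81).

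*Ciart* was rhythmic in both genotypes by JTK_cycle, a rank test for a 24-h rhythm with p corrected for the 12 phases searched. The p was 1.39e-09 in 24 control mice and 2.83e-07 in 22 *Bmal1*IEC-/- mice, with a peak phase of CT10 in both. For background, 48.8% of genes were called rhythmic in control mice and 28.5% in *Bmal1*IEC-/- mice at a p under 0.05. A fitted cosine had an amplitude of 59.6 ± 9.34 (SE) normalised counts in controls and 13.9 ± 3.12 in *Bmal1*IEC-/- mice. Divided by the fitted mean level, the amplitude was 1.42 ± 0.31 in controls and 1.03 ± 0.30 in *Bmal1*IEC-/- mice. An amplitude above the mean level puts the trough of the fitted curve below any possible count, so the fit is rough. The cosine took up 66.0% of the variance in controls and 51.4% in *Bmal1*IEC-/- mice. The fitted peaks lay 0.20 h apart, with an interval of the shift from -2.26 to 1.86 h. In an edgeR test of genotype by cosine and sine on the log scale, which called 0.935% of genes, the difference in rhythm did not pass (adjusted p = 0.116). It passed in 2 of 50 alternatives: DESeq2 (adjusted p = 0.0315) and without *Bmal1*IEC-/- replicate SV410 at CT9 (adjusted p = 0.0286). The latter was 1 of 46 runs that left out a mouse. It did not pass with all 48 mice (adjusted p = 0.0817), without the filter on low counts (0.0512) or with time as a factor (0.115).

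*Bhlhe40* had a shallower daily change in control mice, with its highest mean at CT13. At CT1 the control mice had 301, 379.8, 447 and 568 normalised counts, and at CT5 they had 446, 487, 493 and 682. At CT9 they had 596, 649.8, 773 and 801, and at CT13 they had 619, 753, 815 and 849. All values at CT13 were above all values at CT1, and the CT13 mean (759 ± 101, n = 4) was 1.79 times the CT1 mean (424 ± 113, n = 4). At CT17 they had 631, 639, 699 and 794, and at CT21 they had 559, 579.7, 606 and 645.

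In *Bmal1*IEC-/- mice the means of *Bhlhe40* lay between 538 and 633. The 2 mice at CT1 had 532 and 543 normalised counts, and the 4 mice at CT5 had 429.9, 463, 629 and 782. At CT9 they had 601, 604, 649 and 679, and at CT13 they had 517, 550.3, 596 and 630.2. The values at CT5 were the most spread and reached below and above those of every other time. At CT17 they had 545, 545, 567 and 637, and at CT21 they had 498, 522, 570.1 and 593. The highest mean, at CT9, was 1.18 times the lowest, at CT1. The 2 genotypes overlapped at all 6 times. The *Bmal1*IEC-/- mean was 127% of the control mean at CT1 and 75.5% at CT13.

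*Bhlhe40* was called rhythmic in control mice (exact JTK_cycle p = 6.25e-05, peak phase CT14) and not in *Bmal1*IEC-/- mice (p = 0.209). The fitted amplitude was 158 ± 26.0 (SE) normalised counts in controls and 35.2 ± 22.9 in *Bmal1*IEC-/- mice, or 0.26 ± 0.04 and 0.06 ± 0.04 of the mean level. A call in one genotype and not in the other does not itself show a difference. The direct test of the difference in rhythm did not pass in edgeR (adjusted p = 0.118). It passed in DESeq2 (adjusted p = 0.0498), without the filter on low counts (adjusted p = 0.0423), without control replicate SV442 at CT5 (adjusted p = 0.0370) and without *Bmal1*IEC-/- replicate SV477 at CT5 (adjusted p = 0.0477). These were 4 of 50 alternatives, and the last 2 were among 46 runs that left out a mouse. With time as a factor the test gave an adjusted p of 0.413.

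The mean level of *Bhlhe40* did not pass the test for genotype, with a log2 fold change of -0.11 ± 0.07 (SE) and an interval from -0.25 to 0.02 (adjusted p = 0.320). That interval holds no fall as large as that of *Ciart*. At single times the value was highest at CT1 (0.34 ± 0.18, adjusted p = 0.343) and lowest at CT13 (-0.40 ± 0.14, adjusted p = 0.0994), and none of the 6 passed. The day-night by genotype interaction, with CT1, CT5 and CT9 as day, was -0.37 ± 0.15 (adjusted p = 0.474), in a test that called 0.0531% of genes.

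*Bhlhe41* was scarce, with 0 to 34 reads per mouse, and its values overlapped between the genotypes at every time. At CT1 the control mice had 0, 2.06, 4.40 and 4.68 normalised counts, and the count of 0 allows up to 3 reads. At CT9 they had 17.2, 18.1, 33.4 and 36.1, and at CT21 they had 5.02, 7.03, 8.65 and 13.4. All control values at CT9 were above those at CT1, CT5, CT17 and CT21. At CT5 they had 10.7, 11.2, 11.8 and 14.2, at CT13 they had 9.21, 10.9, 17.7 and 26.9, and at CT17 they had 7.72, 8.24, 11.3 and 11.7.

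In *Bmal1*IEC-/- mice *Bhlhe41* likewise had its highest mean at CT9, with 13.3, 20.3, 20.6 and 30.1 normalised counts. At CT1 the 2 mice had 3.18 and 5.14, and at CT21 the 4 mice had 2.06, 2.81, 5.03 and 7.37. At CT5 the *Bmal1*IEC-/- mice had 10.2, 14.1, 16.1 and 17.1, at CT13 they had 13.7, 14.4, 15.9 and 16.9, and at CT17 they had 2.01, 5.71, 8.79 and 15.8. The log2 fold change over all times was -0.17 ± 0.17 (SE), with an interval from -0.52 to 0.17 (adjusted p = 0.60), and no single time passed.

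*Bhlhe41* was called rhythmic in both genotypes, with a JTK_cycle p of 0.000441 in controls and 0.000106 in *Bmal1*IEC-/- mice and a peak phase of CT10 in both. Its fitted amplitude was 9.08 ± 1.83 (SE) normalised counts in controls and 8.36 ± 1.25 in *Bmal1*IEC-/- mice, which is 0.72 ± 0.16 and 0.73 ± 0.13 of the mean level. The difference in amplitude was -0.72 ± 2.22 normalised counts. The fitted peak was 0.90 h earlier in *Bmal1*IEC-/- mice, with an interval of the shift from -2.80 to 1.0 h. The test of a difference in rhythm gave an adjusted p of 0.871.

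The genotype effects of the 3 genes were compared with each other through their log2 ratio within each mouse, a comparison chosen after the values were seen. Genotype labels were permuted within circadian times (100000 permutations, two-sided, 46 mice, on log2 of normalised count plus 1), and p was adjusted over the 3 pairs. The effect on *Ciart* minus that on *Bhlhe40* was -0.82 on the log2 scale, and negative at 5 of 6 times (adjusted permutation p = 0.00054). Against *Bhlhe41* the difference was -0.79, negative at 5 of 6 times (adjusted permutation p = 0.00911). With 5 added to the counts in place of 1, these differences were -0.73 and -0.70. Their size thus depends on the count added, and they are not on the scale of the edgeR fold changes. *Bhlhe40* and *Bhlhe41* differed by 0.04 (adjusted permutation p = 0.847), which does not show that they respond alike.

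In RPKM, that is CPM per kilobase of exon, which allows levels of different genes to be compared, *Bhlhe40* led in control mice at CT9 with 39.2 ± 5.45, followed by *Ciart* with 17.1 ± 2.77 and *Bhlhe41* with 1.02 ± 0.39 (n = 4 each). In *Bmal1*IEC-/- mice at CT9 the values were 35.1 ± 1.95, 4.40 ± 2.0 and 0.82 ± 0.27. The order of the means was the same in both genotypes. At CT21, the trough of *Ciart*, control mice had 0.51 ± 0.30 RPKM of *Ciart* and 33.0 ± 2.07 RPKM of *Bhlhe40*. Exon lengths were 2261, 4705 and 6720 bases for *Ciart*, *Bhlhe40* and *Bhlhe41*. Each gene has 1 annotated antisense neighbour that overlaps it, and whether counting used strand was not given in the sources used here. The neighbour of *Ciart*, C920021L13Rik, spans all of it and had 2 to 14 reads per mouse.

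Ordered by mean, the levels of *Ciart* in control mice ran CT9, CT13, CT5, CT17, CT1 and CT21, and in *Bmal1*IEC-/- mice they had the same order. Those of *Bhlhe40* ran CT13, CT9, CT17, CT21, CT5 and CT1 in controls and CT9, CT5, CT17, CT13, CT21 and CT1 in *Bmal1*IEC-/- mice. Those of *Bhlhe41* ran CT9, CT13, CT5, CT17, CT21 and CT1 in both. Of the 30 pairs of neighbouring times in these orders, 5 did not overlap: CT9 over CT13, CT13 over CT5 and CT17 over CT1 for *Ciart* in control mice, CT13 over CT5 for *Ciart* in *Bmal1*IEC-/- mice, and CT21 over CT1 for *Bhlhe41* in control mice. Each had an exact permutation p of 0.0286, the smallest that 4 against 4 mice can give, and an adjusted exact p of 0.171 over the 30 tests. Pairs with the 2 mice at CT1 cannot go below 0.0667. At least 18 of the 30 tests would have had to reach 0.0286 for any to pass, so the adjusted values say little about whether neighbouring times differ. The share of such pairs without overlap over all genes was not computed.

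Set beside the clock genes, the 3 repressors fell at different places. Of a list of 21 clock genes, 17 were tested, and *Bmal1*IEC-/- mice had 5 of them higher and 7 lower, with a median log2 fold change of -0.05 against -0.00048 over all genes, of which 10.5% were called. The difference in rhythm passed in edgeR for 10 of the 17 clock genes, against 0.935% of all genes, and for none of the 3 repressors in the same test. The lowest were *Nr1d2* (-1.74), *Nr1d1* (-1.49) and *Per3* (-0.89), and *Ciart* at -1.41 lay between *Nr1d1* and *Per3*. Among the higher ones were *Npas2* (1.39) and *Cry1* (1.27). Cosine amplitudes in *Bmal1*IEC-/- mice were 0.0697 to 1.10 times those in control mice for the 17 clock genes (median 0.344, lower in 16). The ratios were 0.234 for *Ciart*, 0.223 for *Bhlhe40* and 0.921 for *Bhlhe41*. Amplitude ratios were not computed over all genes, of which 48.8% were called rhythmic in controls and 28.5% in *Bmal1*IEC-/- mice. *Hlf*, a PAR-bZIP transcription factor, had the ratio of 1.10. Of amplitudes relative to the mean level, the ratio was 1.02 for *Bhlhe41*, 0.730 for *Ciart* and 0.240 for *Bhlhe40*. The highest among the clock genes were *Hlf* (1.14), *Nr1d2* (0.967) and *Nr1d1* (0.939). The others ran from 0.0374 (*Nfil3*) to 0.708 (*Dbp*), with *Arntl* at 0.166.

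**Figure D3:**
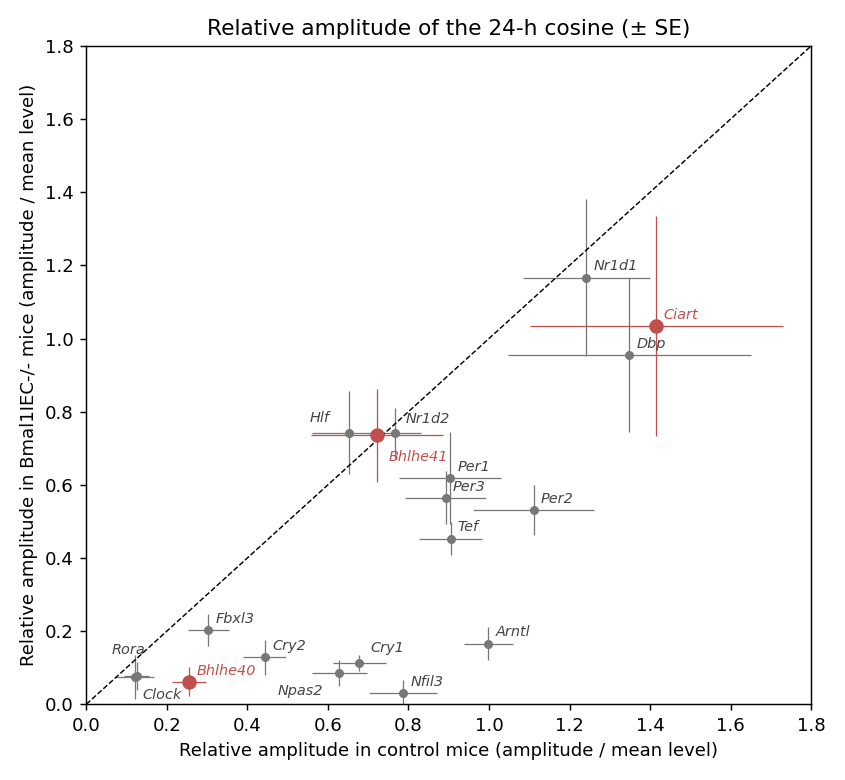
Amplitude of the 24-h cosine divided by the fitted mean level, with bars of ± SE, in control mice (horizontal axis) and *Bmal1*IEC-/- mice (vertical axis); red points are the 3 repressors, grey points 16 of the 17 clock genes, and the dashed line marks equal values. *Bhlhe41* lies on the line (0.72 and 0.73), *Ciart* is at 1.42 and 1.03, and *Bhlhe40* is at 0.26 and 0.06.

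Among 6 tested relatives of *Bhlhe40* and *Bhlhe41* in the bHLH-Orange family, *Hes2* was lower in *Bmal1*IEC-/- mice (log2 fold change -0.90, adjusted p = 2.66e-06) and the other 5 did not pass, with a list median of -0.18. This is 1 of 6, against 10.5% of all genes called in either direction and 5.72% called lower. Of 13 hypoxia-inducible genes, a group to which *Bhlhe40* is often counted, 1 was higher and 5 were lower (median -0.13), against 5.72% of all genes called lower. Cell type markers moved in the same comparison: 2 of 8 smooth muscle markers (median -0.17) and 2 of 7 fibroblast markers (median -0.14) were lower, and 4 of 11 epithelial markers were higher and 1 lower (median 0.12). Their part in these counts was not tested. *Ankrd37* was higher (0.88), and *Adm*, which encodes adrenomedullin, was lower (-0.53), as were *Bnip3* (-0.37) and *P4ha2* (-0.34). None of the tested members of the bHLH-Orange and hypoxia lists passed the test for a difference in rhythm.

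The genes whose profiles were most like those of the 3 repressors were found by Pearson's r of log2 CPM over the 46 mice, which share genotype and time. For *Ciart* they were *Dbp* (r = 0.91), *Tef* (0.86), *Per3* (0.84), ENSMUSG00000070661 (0.84) and *Myo1a* (0.83), and the least alike were *Arntl* (-0.86), *Ergic1* (-0.82) and *Ehhadh* (-0.78). For *Bhlhe40* they were *Per1* (0.76), *Usp2* (0.75), *Tef* (0.74), *Cltb* (0.74) and *Fam43a* (0.73), with *Abhd17b* (-0.73), *Ckap5* (-0.73) and *Zfand5* (-0.72) at the other end. For *Bhlhe41* they included *Dbp* (0.82), *Hlf* (0.81), *Tef* (0.77) and 0610005C13Rik (0.74), with *Itga2* (-0.79), *Serinc3* (-0.77) and *Acaca* (-0.72) at the other end. *Tef*, a PAR-bZIP transcription factor, stood among the top 5 of all 3. Among themselves the repressors had r = 0.69 for *Ciart* with *Bhlhe41*, 0.56 for *Bhlhe40* with *Bhlhe41* and 0.53 for *Ciart* with *Bhlhe40*.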

How the data were processed

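The authors sequenced stranded mRNA libraries of whole colon, trimmed reads with Trimmomatic 0.39, aligned them to mm10 with STAR 2.7.5c and counted exon reads with featureCounts 1.4.6. The deposited values are raw counts per gene (3144997 to 4785844 per mouse). The strand setting and annotation release are not given in the sources used here. Symbols and coordinates come from GENCODE vM21. Genotype, single-time, day-night and rhythm-difference tests used edgeR 4.0.16 (quasi-likelihood, TMM, filterByExpr, Benjamini-Hochberg over 15073 genes, threshold 0.05) on 46 mice. Normalised counts used DESeq2 1.42.0 size factors. JTK_cycle was an own implementation with the exact null distribution. Tested on simulated data for the genotype comparison, edgeR recovered 96% of 200 genes changed by a fold of 2 among 15073. For the rhythm difference it recovered 85% of 200 genes with a relative amplitude of 0.6 in control mice alone. Smaller amplitudes such as that of *Bhlhe40* were not simulated. Nor was a gene rhythmic in both genotypes, such as *Ciart* or *Bhlhe41*, so the 85% does not apply to any of the 3 genes. The 3 genes and the gene lists were chosen with earlier results of these data known. The genes named as most alike are the 5 highest and 3 lowest r, and from each list at most 3 called genes per direction by size; 2 genes that this rule names are not reported here. Mice are separate animals with their own numbers, so no samples were paired.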

Additional observations from a re-analysis of the deposited data

Results flagged for a closer look

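The 33 groups of 4 mice (11 groups for each of the 3 genes) held no mouse far from the other 3 by Dixon's criterion. In edgeR on 46 mice with the filter on low counts, neither the rhythm difference nor the day-night interaction passed for any of the 3 genes. One value in a mouse outside the 46 was flagged: *Bmal1*IEC-/- replicate SV385 at CT1 had 743 normalised counts of *Bhlhe40*, above the highest control mouse at CT1 (563, with size factors over 48 mice). In this mouse the summed fibroblast markers were at 455 CPM and the epithelial markers at 16724 CPM. Their part in the *Bhlhe40* value was not tested.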

How the results depend on the processing

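Of 1692 recomputed values, 1655 kept their direction and their side of the threshold. The genotype effect of *Ciart* passed in all 59 alternatives (-1.54 to -1.10), and those of *Bhlhe40* and *Bhlhe41* passed in none. The rhythm difference passed with DESeq2 for *Ciart* (adjusted p = 0.0315) and *Bhlhe40* (0.0498), and without the filter for *Bhlhe40* (0.0423). Leaving out each mouse in turn gave 0.0286 to 0.194 for *Ciart* and 0.0370 to 0.223 for *Bhlhe40*. The day-night interaction of *Ciart* ranged from -0.25 to 0.37 over left-out mice, and the difference between *Bhlhe40* and *Bhlhe41* from -0.045 to 0.12, so neither has a direction. With 48 mice the *Ciart* effect at CT1 turned to -0.26. Over left-out mice the single-time effects that changed sign ranged from -0.015 to 0.45 (*Ciart*, CT1), -0.26 to 0.37 (*Ciart*, CT21), -0.062 to 0.28 (*Bhlhe40*, CT5), -0.28 to 0.28 (*Bhlhe41*, CT13) and -0.81 to 0.048 (*Bhlhe41*, CT17), none of them called. At CT17 the *Ciart* effect passed without *Bmal1*IEC-/- replicate SV416 at CT17 (adjusted p = 0.0472) or SV418 at CT9 (0.0358). With no time term, 807 genes were called for genotype in place of 1590. The settings for that count beyond samples, tool, filter and left-out mice, and all settings for the differences between pairs of the 3 genes, were chosen after seeing the data. DESeq2 gave no adjusted p for *Bhlhe41* in the day-night interaction and at CT1. The cause of these changes was not tested. Low counts limit *Bhlhe41* and the trough of *Ciart*.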
